A study of Mus musculus with 12 samples.

Results

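The genes described here encode pore-forming subunits of the AMPA and NMDA receptors: *Gria1*, *Gria2*, *Gria3* and *Gria4* for AMPA receptors, and *Grin1*, *Grin2a*, *Grin2b*, *Grin2c*, *Grin2d* and *Grin3a* for NMDA receptors. These 10 genes were chosen by name from the 21938 protein-coding genes of the annotation. For each gene, peaks were read in a window that ran from 5 kb upstream of the annotated start to the gene end in mm10. The windows were between 23.1 kb long (*Grin2c*) and 465 kb long (*Grin2b*). In the annotation, *Gria1* at chr11:57011387-57330244 and *Gria3* at chrX:41400854-41678601 are on the plus strand and *Gria2* at chr3:80681450-80802835 and *Gria4* at chr9:4417896-4796234 on the minus strand. The NMDA receptor genes are all on the minus strand: *Grin1* at chr2:25291181-25319187, *Grin2a* at chr16:9567898-9995560, *Grin2b* at chr6:135713233-136173511, *Grin2c* at chr11:115249169-115267243, *Grin2d* at chr7:45831883-45878378 and *Grin3a* at chr4:49661611-49845744.

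The study profiled 2 histone marks by native chromatin immunoprecipitation and sequencing in the cerebral cortex of mice at postnatal day 2 (P2). All pups were Gad67-GFP heterozygotes, in which GFP marks cells that express *Gad67*, an enzyme of GABA synthesis, and no other genotype or treatment was used. Dissociated cortex was sorted into GFP+ cells, the cortical interneurons (CINs), and GFP- cells (non-CINs), which hold every other cortical cell, mainly glutamatergic projection neurons and glia. Each mark has 2 replicates per population, so 8 peak lists were analysed, and each sample was tissue pooled from several litters. Acetylation of histone H3 at lysine 27 (H3K27ac) is a mark of active promoters and enhancers, whereas trimethylation of the same residue (H3K27me3) is laid down by Polycomb repressive complex 2 over silent or poised genes.

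AMPA receptors are tetramers of the GluA1 to GluA4 proteins and carry most fast excitatory transmission. NMDA receptors need the GluN1 protein, encoded by *Grin1*, together with GluN2 or GluN3 subunits, and open only when glutamate binds and the membrane is depolarised. The GluN2 subunits change with age: GluN2B and GluN2D are prominent around birth, as is GluN3A, whereas GluN2A and GluN2C increase later. *Grin2b*, *Grin2d* and *Grin3a* are therefore called juvenile and *Grin2a* and *Grin2c* mature below.

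The H3K27ac lists held between 46040 and 62505 peaks and the H3K27me3 lists between 36662 and 45081. They hold called peaks and no read counts, so the read depth behind a window is unknown and a window without a peak is one without a call, not one without the mark. In the check of the populations, 7 of 7 CIN markers with an H3K27ac peak had more covered bases in both CIN lists than in both non-CIN lists, with totals of 47668 to 59302 bp against 434 to 652 bp. *Lhx6* had no H3K27ac peak. H3K27me3 separated the populations less over the 8 CIN markers: 5 had more in both non-CIN lists, 3 overlapped, and the totals overlapped too (86265 to 94464 bp in the CIN lists against 93699 to 97122 bp in the non-CIN lists). The non-CIN lists had more over 3 of 3 astrocyte markers (63773 to 66078 bp against 40112 to 42463 bp) and 1 of 3 projection neuron markers, *Emx1*. The projection neuron markers *Slc17a7* and *Neurod2* had no H3K27ac peak in any list. Markers of the remaining classes (oligodendrocyte lineage, microglia, endothelium) were split, with 1 of 6 genes higher in CINs and 2 of 6 in non-CINs. In sorted bulk cells, fewer cells that carry a mark and less of the mark per cell cannot be told apart.

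The promoters of 5 members (*Gria2*, *Gria4*, *Grin1*, *Grin2c* and *Grin2d*) were in the RefSeq sequence table for GRCm38.p6, the same assembly as mm10; *Gria1*, *Gria3*, *Grin2a*, *Grin2b* and *Grin3a* had no entry. The 250 bases upstream of the start are shown for the 2 members with the largest H3K27me3 share of their window (*Grin2c*, *Grin1*) and the 2 with none (*Gria2*, *Gria4*), read 5′ to 3′ on the gene's strand. Capitals mark CG dinucleotides, since CG-rich starts are the usual sites of Polycomb marking.
*Grin2c* promoter, chr11:115267244-115267493, minus strand: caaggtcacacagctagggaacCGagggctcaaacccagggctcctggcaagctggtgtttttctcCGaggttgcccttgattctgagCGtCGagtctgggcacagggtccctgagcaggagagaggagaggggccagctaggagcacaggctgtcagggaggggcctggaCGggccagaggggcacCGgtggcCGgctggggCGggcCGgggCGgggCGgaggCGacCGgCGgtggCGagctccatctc
*Grin1* promoter, chr2:25319188-25319437, minus strand: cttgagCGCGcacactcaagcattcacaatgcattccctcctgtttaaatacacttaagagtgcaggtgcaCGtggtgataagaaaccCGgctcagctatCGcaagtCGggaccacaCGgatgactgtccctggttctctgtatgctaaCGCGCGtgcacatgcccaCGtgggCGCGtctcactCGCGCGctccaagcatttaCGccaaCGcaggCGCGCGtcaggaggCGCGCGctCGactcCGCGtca
*Gria2* promoter, chr3:80802836-80803085, minus strand: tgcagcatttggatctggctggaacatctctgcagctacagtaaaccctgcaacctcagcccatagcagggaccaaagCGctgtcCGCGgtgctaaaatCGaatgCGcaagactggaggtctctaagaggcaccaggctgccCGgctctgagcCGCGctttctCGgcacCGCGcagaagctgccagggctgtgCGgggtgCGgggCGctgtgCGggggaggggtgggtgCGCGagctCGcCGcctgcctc
*Gria4* promoter, chr9:4796235-4796484, minus strand: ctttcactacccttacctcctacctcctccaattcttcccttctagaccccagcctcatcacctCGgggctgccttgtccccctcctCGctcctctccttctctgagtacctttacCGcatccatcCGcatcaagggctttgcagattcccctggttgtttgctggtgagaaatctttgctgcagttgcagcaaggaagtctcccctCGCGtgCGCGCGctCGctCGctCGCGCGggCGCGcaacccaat

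The *Grin1* promoter held 27 CG dinucleotides, and its ratio of observed to expected CG of 1.26 was at percentile 99.7 of 21263 protein-coding promoters, whose median was 0.530. *Grin2c* held 15 (ratio 0.536, percentile 50.4), although its 68.8% GC was the highest of the 5. *Gria2* held 19 (ratio 0.728) and *Gria4* 16 (ratio 0.833), the latter crowded into the last bases before the start. *Grin2d*, not shown, held 9 (ratio 0.765). Its sequence, chr7:45866682-45866931, lies inside the gene and not at the annotated start used for its window. Of the 5, *Grin2c* had the largest H3K27me3 share of its window and the lowest ratio. Among the short motifs searched on both strands, GGGCGG (SP/KLF) had 3 matches in *Grin2c*, of which 2 overlap by a base, and none in the other promoters, beside 42.6% of all promoters with a match. CTGTCA (MEIS core) had 1 match, also in *Grin2c*, beside 15.4%. GCATGCGC (NRF1 core), TGACGTCA (CRE), TTCAGCACC (left part of RE1), TAATTA (DLX core) and CTTTGT (SOX core) had none in the 5, beside 2.93%, 1.92%, 0.329%, 4.31% and 14.9% of all promoters.

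The clearest division among the members was between receptor classes, and it was in H3K27me3. Each of the 6 NMDA receptor genes had an H3K27me3 peak in all 4 lists, over 2482 to 12431 bp, whereas none of the 4 AMPA receptor genes did, and their highest value was 909 bp. Per window length the classes also did not overlap. The NMDA genes had between 0.598% and 39.7% of the window covered and the AMPA genes between 0% and 0.321%. These gaps depended on the peak threshold. With peaks of -log10 q of at least 4 alone, *Grin2b* kept 249 bp in CIN replicate 1. *Gria1* kept 282 bp in non-CIN replicate 2, so the classes then overlapped in both measures. Each NMDA gene still had a peak in all 4 lists, and no AMPA gene did. The NMDA receptor gene *Grin3b*, not among the members, had 1362 and 2123 bp in the CIN lists against 1713 and 1581 bp in the non-CIN lists, between the 2 classes. Of all protein-coding genes, 21.1% had an H3K27me3 peak in all 4 lists. H3K27ac gave no such division. A peak was in all 4 lists in 3 of 4 AMPA genes (*Gria2*, *Gria3*, *Gria4*) and 3 of 6 NMDA genes (*Grin2b*, *Grin2d*, *Grin3a*), beside 56.8% of all genes. For *Grin2d* the only peak in the replicate 2 lists lay at the start of a neighbouring gene, *Kdelr1*. No test was made between the classes, because genes are not replicates.

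**Figure D1:**
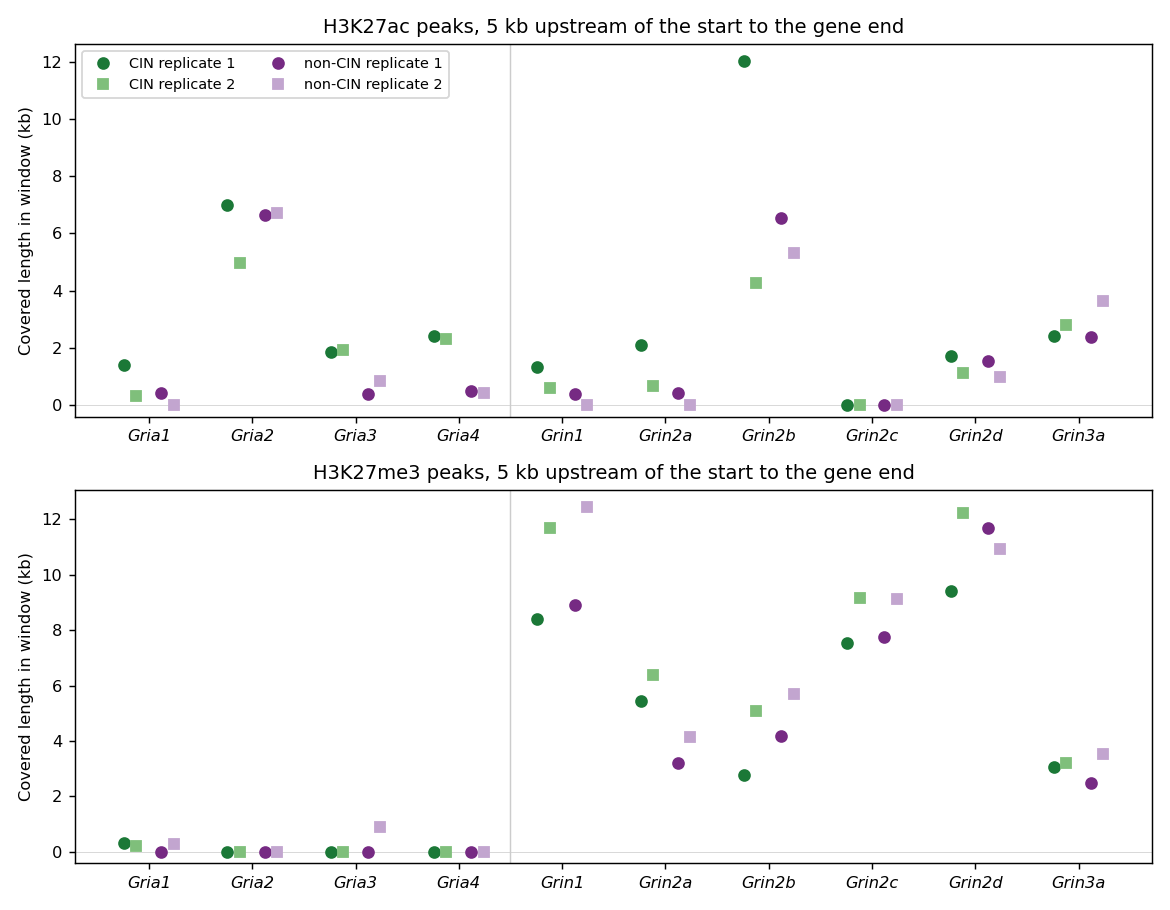
Bases covered by H3K27ac peaks (top) and H3K27me3 peaks (bottom) in the window of each gene, in kb on a linear axis, with 1 point per peak list, AMPA receptor genes left of the grey line and NMDA receptor genes right of it. The 4 AMPA genes lie at or below 909 bp of H3K27me3 while each NMDA gene shown lies at or above 2482 bp. *Gria4* H3K27ac separates CINs (2431 and 2299 bp) from non-CINs (493 and 435 bp).

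*Gria2* encodes GluA2, the subunit that makes AMPA receptors impermeable to calcium, and it carried the H3K27ac peak of highest fold among the members in each list. Covered length was 7003 and 4982 bp in the CIN lists against 6631 and 6721 bp in the non-CIN lists, so the populations overlapped. Its top peak lay over the start in every list, from -1.08 to +3.31 kb in CIN replicate 1 and from -0.686 to +4.19 kb in non-CIN replicate 2. Fold enrichment over input can be compared only within a list. Each peak was therefore placed by its percentile, the share of the list's peaks with an equal or lower fold. A window without a peak was given a percentile of 0. The *Gria2* start peak was at percentiles 99.3 and 99.4 in CINs against 88.7 and 94.1 in non-CINs, both CIN values above both non-CIN values. Further peaks lay in an intron near +105 kb in all 4 lists. No list had an H3K27me3 peak in the gene.

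*Gria4* encodes GluA4, known for fast-gating AMPA receptors in several interneuron types, and it differed between the populations in both measures. H3K27ac covered 2431 and 2299 bp in the CIN lists against 493 and 435 bp in the non-CIN lists, with means of 2365 ± 93.3 and 464 ± 41.0 bp (SD, n = 2), a ratio of 5.10. Both populations had a peak at the start, at +0.132 to +0.624 kb in non-CIN replicate 1 and +0.181 to +0.615 kb in replicate 2. In CINs the start peak was longer, from -0.266 to +1.25 kb and from -0.253 to +1.14 kb, and a second peak followed, at +1.60 to +2.31 kb in replicate 1 and +1.39 to +2.05 kb in replicate 2. Top percentiles were 69.6 and 53.1 in CINs against 34.3 and 16.8 in non-CINs. Each CIN list also had a short peak far inside the gene, at +291 kb in replicate 1 (percentile 55.5) and +115 kb in replicate 2 (percentile 9.80). No H3K27me3 peak was called in any list. The central 300 bases of the stretch that the second CIN peak shares between replicates are shown because they hold H3K27ac in both CIN lists and in neither non-CIN list; they were chosen after these values were seen. They lie in intron 2 of 17 exons, overlap no exon, hold a long TG repeat and 6 CG dinucleotides (capitals), and are read 5′ to 3′ on the gene's strand.
*Gria4* intronic peak, chr9:4794259-4794558, minus strand: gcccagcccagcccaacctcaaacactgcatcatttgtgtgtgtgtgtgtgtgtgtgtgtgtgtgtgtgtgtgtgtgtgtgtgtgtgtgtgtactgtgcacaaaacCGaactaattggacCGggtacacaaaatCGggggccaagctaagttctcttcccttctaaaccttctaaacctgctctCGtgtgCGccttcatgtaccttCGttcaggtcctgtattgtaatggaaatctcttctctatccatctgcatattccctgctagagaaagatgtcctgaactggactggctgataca

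*Gria3* encodes GluA3, which mostly pairs with GluA2. Its H3K27ac covered 1861 and 1918 bp in the CIN lists against 395 and 840 bp in the non-CIN lists, a ratio of means of 3.06 without overlap. The longest CIN peak lay in an intron, at +104 to +105 kb in both CIN lists, with 806 and 1427 bp, and non-CIN replicate 2 had 209 and 431 bp at the same place. Top percentiles overlapped between the populations (53.6 and 46.0 against 10.8 and 49.7). H3K27me3 was called only in non-CIN replicate 2, over 909 bp.

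*Gria1* encodes GluA1, the subunit most tied to synaptic plasticity, and had little of either mark. H3K27ac covered 1400 and 338 bp in the CIN lists against 433 and 0 bp in the non-CIN lists, which overlap. The start carried a peak in 3 of the 4 lists, at percentiles of 70.1 and 5.82 in CINs and 38.7 in non-CIN replicate 1. H3K27me3 peaks of 308, 226 and 282 bp in 3 lists each lay at a different place. H3K27ac covered 0.168% of the *Gria1* window on average, the smallest share among the 9 members with a peak.

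*Grin1*, the gene of the obligate NMDA receptor subunit, had the second largest H3K27me3 share, 31.4% of its 33.0 kb window on average over the 4 lists. Covered length was 8397 and 11672 bp in the CIN lists against 8927 and 12431 bp in the non-CIN lists, and the populations overlapped. The marking was heaviest inside the gene rather than at the start: a block from about +5.3 to +13.6 kb and a block at the 3′ end from +26.0 to +29.9 kb in CIN replicate 1, at percentiles of 95.6 and 98.0. The 3′ block reached to within 1 kb of the start of the neighbouring gene *Lrrc26* in each list. Without the peaks that did so, 6434, 10313, 7093 and 10281 bp remained. The 10313 bp of CIN replicate 2 still include a separate 526 bp peak of this block, at +25.9 to +26.4 kb. Within 1 kb of the *Grin1* start, both non-CIN lists and CIN replicate 2 had weaker H3K27me3 peaks and CIN replicate 1 had none.

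H3K27ac in *Grin1* was short, at 1321 and 617 bp in the CIN lists against 402 and 0 bp in the non-CIN lists, without overlap. A peak at the start was called only in the CIN lists, from +0.042 to +0.669 kb at percentile 63.0 and from +0.111 to +0.310 kb at percentile 15.8. A peak near +13.6 kb, within the gene, was called in both CIN lists and in non-CIN replicate 1.

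**Figure D2:**
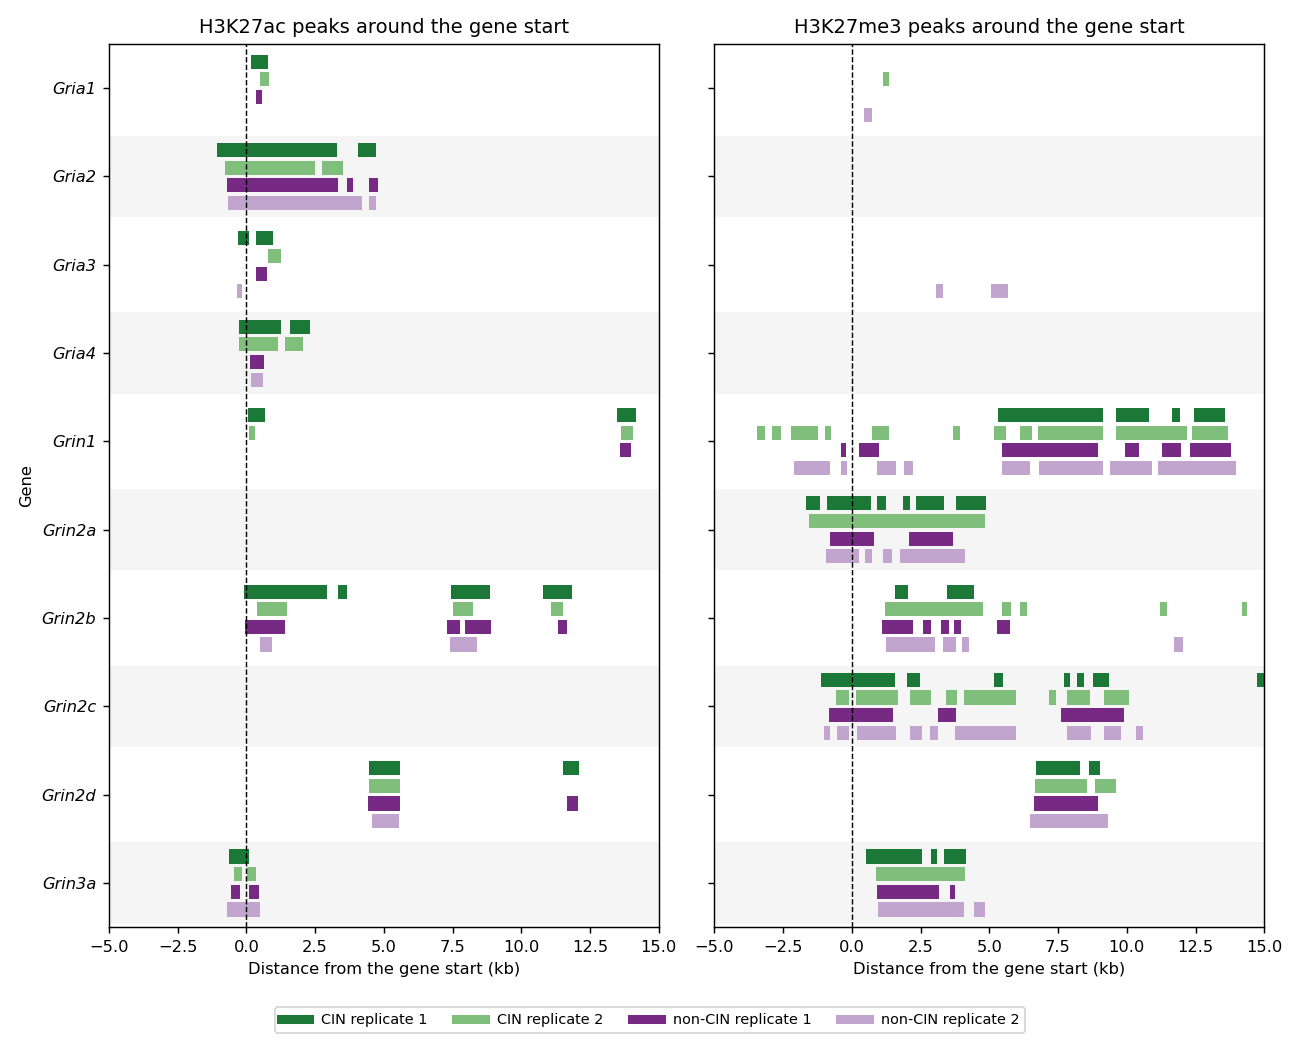
Peaks of H3K27ac (left) and H3K27me3 (right) from 5 kb before to 15 kb after each gene start, with distance in kb on the horizontal axis, 1 row per peak list within each gene, and a bar for each called peak. *Gria2* has H3K27ac across the start in all lists and no H3K27me3, *Grin2a* and *Grin2c* show the reverse, *Grin3a* has H3K27ac at the start followed by H3K27me3, and the *Grin1* start has H3K27ac bars in the CIN lists alone.

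*Grin2b*, which encodes the main GluN2 subunit of the perinatal forebrain, had H3K27ac in many places. Covered length was 12011 and 4267 bp in the CIN lists against 6544 and 5315 bp in the non-CIN lists, in 13, 7, 10 and 6 peaks, so the CIN replicates differed by more than the populations. The strongest peak was not at the start but in an intron, between +22.3 and +24.3 kb, at percentiles of 91.4 and 93.1 in CINs against 86.3 and 92.1 in non-CINs. Other peaks recurred in all 4 lists at the start, and near +7.5, +162 and +424 kb. H3K27me3 covered 2782 and 5092 bp in the CIN lists against 4174 and 5700 bp in the non-CIN lists, with the longest peak of each list between +1.1 and +4.8 kb, adjoining or overlapping the acetylated start. Its top percentile was 74.4 and 81.2 in CINs against 85.5 and 84.1 in non-CINs, the only one among the members with both non-CIN values above both CIN values. The replicate 1 values came from short peaks far from the start, 249 bp near +183 kb in CINs and 218 bp near +259 kb in non-CINs, while peaks within 5 kb of the start reached 58.1 and 74.7 in those lists. In replicate 2 the top peaks were the 3548 bp peak by the start in CINs and a 472 bp peak from +3.30 kb in non-CINs.

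*Grin2a* encodes GluN2A, which joins synaptic NMDA receptors as the cortex matures, and has a window of similar length (433 kb). H3K27ac there was sparse: 2102 and 684 bp in the CIN lists against 421 and 0 bp in the non-CIN lists, without overlap and with no peak within 200 kb of the start. The only peaks that both replicates of a population shared lay in an intron near +227 and +235 kb, and were in CINs. Per window length, H3K27ac covered 0.486%, 0.158%, 0.0973% and 0% of *Grin2a* in CIN replicates 1 and 2 and non-CIN replicates 1 and 2, and 2.58%, 0.917%, 1.41% and 1.14% of *Grin2b*. H3K27me3 spanned the *Grin2a* start, with an unbroken peak from -1.55 to +4.83 kb in CIN replicate 2. It covered 5459 and 6381 bp in the CIN lists against 3213 and 4153 bp in the non-CIN lists, a ratio of means of 1.61, and *Grin2a* was the only member with more covered H3K27me3 in one population without overlap. *Grin2a* was thus longer in CINs for both marks, at separate places.

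**Figure D3:**
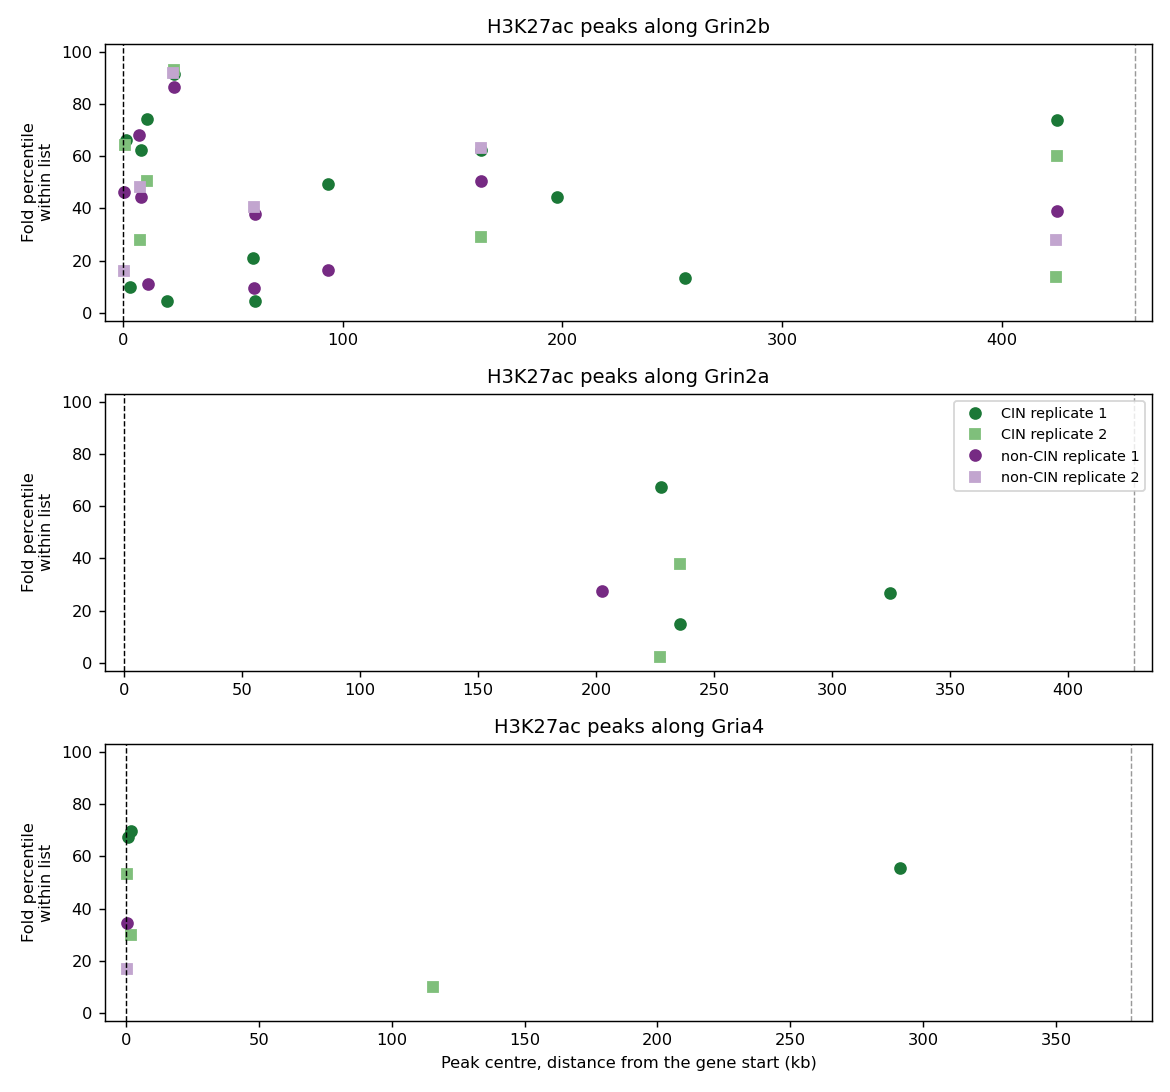
H3K27ac peaks along *Grin2b*, *Grin2a* and *Gria4*, each placed by its centre in kb from the gene start (horizontal) and its fold percentile within its own list (vertical), with dashed lines at the gene start and end and 1 point per peak. The *Grin2b* peak near 23 kb stands at percentiles of 86.3 to 93.1 in all 4 lists, *Grin2a* has no point near its start, and the *Gria4* points lie near the start except for 2 CIN points at +291 and +115 kb.

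*Grin2c* encodes GluN2C, best known from cerebellar granule cells and from glia. It had no H3K27ac peak in any list and the largest H3K27me3 share, 36.4% of its window on average. H3K27me3 covered 7525 and 9171 bp in the CIN lists against 7767 and 9140 bp in the non-CIN lists, which overlap. The peaks lay over the start, from -1.12 to +1.56 kb in CIN replicate 1, in the gene near +8 to +10 kb, and at the 3′ end from +14.7 to +18.6 kb, and top percentiles were 91.0, 97.4, 96.4 and 94.4.

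*Grin2d* encodes GluN2D, a subunit found early in development and in interneurons. H3K27me3 covered 9432 and 12243 bp in the CIN lists against 11682 and 10915 bp in the non-CIN lists, 21.5% of the window on average, with the strongest peaks over the 3′ part of the gene between +41 and +46 kb. The non-CIN values include peaks within 1 kb of the starts of the neighbours *Grwd1* (replicate 1) and *Kdelr1* (replicate 2). Without these the non-CIN lists had 10771 and 8074 bp and the CIN lists were unchanged. The difference of means, CIN minus non-CIN, went from -461 to 1415 bp. However, each removed peak overlaps peaks of the other lists that ended just outside the 1 kb limit and were kept. The change of sign therefore rests on where single peaks end and is not a difference between the populations. A second block near +6.6 to +9.3 kb covered the first coding transcript start in every list, which is 7949 bp downstream of the annotated gene start. H3K27ac covered 1710 and 1123 bp in the CIN lists against 1559 and 991 bp in the non-CIN lists. Most of this was a peak at +4.46 to +5.59 kb that sits at the start of *Kdelr1*, an overlapping neighbour. Without it 579, 0, 404 and 0 bp remained, from a peak near +11.5 to +12.1 kb called only in the replicate 1 lists. This peak lay within 1 kb of another *Grin2d* coding start, 11249 bp downstream of the annotated gene start.

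*Grin3a* encodes GluN3A, a juvenile subunit that lowers the calcium flow of NMDA receptors. Both marks were called within 1 kb of its start in both populations. H3K27ac covered 2413 and 2793 bp in the CIN lists against 2377 and 3633 bp in the non-CIN lists, with the strongest CIN peaks between -0.632 and +0.341 kb. H3K27me3 covered 3068 and 3212 bp in the CIN lists against 2482 and 3539 bp in the non-CIN lists. It began downstream, from +0.503 kb in CIN replicate 1 and +0.896 kb in CIN replicate 2. In non-CIN replicates 1 and 2 it began at +0.904 and +0.967 kb. The covered lengths overlapped for both marks. The top percentiles did not. Those in CINs were above those in non-CINs for H3K27ac (66.8 and 70.7 against 65.7 and 55.8) and for H3K27me3 (86.8 and 80.3 against 68.1 and 77.0). The 65.7 came from an intronic peak near +156 kb in non-CIN replicate 1, whose start peaks were at 7.49 and 5.91. The other H3K27ac values came from peaks at the start.

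The design asked how CINs differ from non-CINs. With 2 lists against 2, an exact two-sided permutation test cannot give a p below 0.33, so a gene was called where both values of one population were above both of the other, and the share of all genes called in the same way is given as background. For H3K27ac covered length, 4 of the 9 members with a peak were called higher in CINs (*Gria3*, *Gria4*, *Grin1* and *Grin2a*) and 0 higher in non-CINs, beside 18.1% and 18% of the 14672 genes with a peak. Among genes with windows of 100 kb or more, which gather more peaks, the shares were 20.7% and 19.6%. For the top H3K27ac percentile, 4 members were higher in CINs (*Gria2*, *Gria4*, *Grin2a* and *Grin3a*) and 0 in non-CINs, beside 20.8% and 15.6%. *Gria4* and *Grin2a* were called by both measures. For *Grin2a* both measures use the same missing peak of non-CIN replicate 2, so its 2 calls are not independent. A looser rule compared lists only within a replicate number and asked for the same direction in both. It called 6 members higher in CINs by covered length, adding *Gria1* and *Grin2d* (the latter not without its *Kdelr1* start peak), beside 29.8% of genes, and 7 by top percentile, adding *Gria1*, *Grin1* and *Grin2b*, beside 33.2%. For *Gria1*, *Grin1* and *Grin2a* the replicate 2 comparison was against a non-CIN window without a peak, scored as 0, so a missing call set its outcome. The looser rule called 0 members higher in non-CINs, beside 29.2% and 24.6%.

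For H3K27me3 covered length, 1 of the 8 members with a peak (*Grin2a*) was called higher in CINs and 0 in non-CINs, beside 7.34% and 11.1% of 8941 genes, or 7.59% and 17% of those with windows of 100 kb or more. For the top H3K27me3 percentile, *Grin3a* was higher in CINs and *Grin2b* in non-CINs, beside 9.62% and 13.8%. A count of 1 is near these background shares. Within replicate numbers, *Grin2a* alone was called higher in CINs by length, beside 16.7%, and *Grin1* and *Grin2b* higher in non-CINs, beside 25.4%. By percentile the same rule called *Grin3a* in CINs, beside 16.7%, and *Grin2b* and *Grin2d* in non-CINs, beside 24.1%. With 8 members these counts are near the background too.

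A model fitted across all genes was stricter. With limma on log2(covered bp + 200), no member passed for H3K27ac, where 0.0204% of genes were called higher in CINs (3 genes) and 0% in non-CINs, although 1367 of 14672 genes had an unadjusted p under 0.05. The adjusted p (limma, Benjamini-Hochberg over all genes) was 0.179 for *Gria4*, 0.396 for *Gria3*, 0.552 for *Grin2a* and 0.569 for *Grin1*. Fitting the replicate number as a block, limma called *Gria4* alone of the members (adjusted p = 0.031), beside 1.14% of genes called higher in CINs. The next members were *Grin2a* (adjusted p = 0.0558) and *Gria3* (adjusted p = 0.0749) in that limma fit. For H3K27me3, limma called no gene with or without the block, with 208 and 894 of 8941 genes at an unadjusted p under 0.05, and the adjusted p of *Grin2a* was 0.954 and 0.236.

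At the annotated starts, within 1 kb, 7 members had H3K27ac in both CIN lists (the 4 AMPA genes, *Grin1*, *Grin2b* and *Grin3a*), beside 48.3% of all genes. In both non-CIN lists 5 had it, without *Gria1* and *Grin1*, beside 47.5%. These counts depended on the peak threshold: with peaks of -log10 q of at least 4 alone, 4 members in CINs (*Gria2*, *Gria4*, *Grin2b* and *Grin3a*) and 1 in non-CINs (*Gria2*) had H3K27ac at the start, beside 45.5% and 44.97% of all genes. H3K27me3 was at the start of 3 members in CINs (*Grin2a*, *Grin2c*, *Grin3a*) and of 4 in non-CINs, where *Grin1* was added, beside 12.8% of all genes in each population. *Grin3a* was the member with both marks at the start, in both populations, beside 2.76% of genes in CINs and 2.31% in non-CINs. Its H3K27me3 covered 498 bp within 1 kb of the start in CIN replicate 1. In CIN replicate 2 and non-CIN replicates 1 and 2 it covered 105, 97 and 34 bp, at the edge of that stretch. At the stricter threshold its H3K27ac was not at the start in both non-CIN lists. When every coding transcript start was counted, *Grin2d* gained H3K27me3 in both populations and *Grin2b* in non-CINs.

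Peaks present in both replicates, the high-confidence (HC) peaks, numbered 20 for H3K27ac in CINs, in 9 members, and 17 in non-CINs, in 5 members. With peaks of -log10 q of at least 4 alone they numbered 12 and 7. In the main sets of 20 and 17, 11 places carried a peak in all 4 lists. Regions called as CIN-only had a peak in both CIN lists and none in the non-CIN list of the same replicate number. There were 4 CIN-only H3K27ac regions among the 20, or 20%, beside 11.7% of the HC regions of the genome: 1 at the *Grin1* start (chr2:25318877-25319076, largely in the 5′ UTR of exon 1, percentiles 63.0 and 15.8), 2 in *Grin2a* introns and 1 in a *Grin3a* intron. The *Grin2a* pair lay at chr16:9759961-9760160, 236 kb downstream of the start (percentiles 14.96 and 37.8), and at chr16:9768076-9768559, 227 kb downstream (67.4 and 2.39), and the *Grin3a* region at chr4:49729358-49729797, 116 kb downstream (13.7 and 32.8). The non-CIN-only H3K27ac region, 1 of 17 beside 7.94% in the genome, was in *Gria2* (chr3:80688474-80688751, in the 3′ UTR, percentiles 6.17 and 32.9). These regions were short, 200 to 484 bp, and each was below the median fold of at least 1 of its lists.

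For H3K27me3 the CIN lists shared 18 HC peaks and the non-CIN lists 24, each set in the 6 NMDA genes, and 18 places had a peak in all 4 lists. These H3K27me3 counts followed the processing: 8 and 10 at a reciprocal overlap of 50%, and 35 and 40 without merging. No H3K27me3 region of the 18 was CIN-only, beside 4.76% in the genome. A single stretch of 91 bp in *Grin2d* (chr7:45850083-45850173, an intron) was non-CIN-only, at percentiles of 6.53 and 13.1, which is 1 of 24 beside 7.33%. Counts this small are not a result about these genes.

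Juvenile and mature NMDA receptor subunits were set side by side as the share of the window covered, with no test across so few chosen genes. For H3K27ac, the median of the 3 juvenile genes was above that of the 2 mature genes in each list, by 2.34 and 1.40 percentage points in CINs and 1.36 and 1.92 in non-CINs. Every juvenile gene was above both mature genes in every list. This order rests partly on the *Kdelr1* start peak in *Grin2d*. Without peaks at the starts of other genes, *Grin2d* had no H3K27ac in either replicate 2 list, level with *Grin2c* and, in CIN replicate 2, below the mature gene *Grin2a* (0.158%). The mean difference then went from 1.87 to 0.935 points in CINs and from 1.64 to 1.18 in non-CINs.

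For H3K27me3 the juvenile median was below the mature one, by -15.3 and -18.9 points in CINs and -15.9 and -18.4 in non-CINs, but the mature value is the midpoint of 2 unlike genes. *Grin2c* had 36.4% of its window covered on average and *Grin2a* 1.11%, and *Grin2a* fell between the juvenile genes *Grin2b* (0.954%) and *Grin3a* (1.63%). The juvenile gene *Grin2d*, at 21.5%, was nearer to *Grin2c*. The 3 shortest windows (*Grin2c*, *Grin1*, *Grin2d*) had the 3 largest shares. Over all genes with an H3K27me3 peak the median share was 2.21%.

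**Figure D4:**
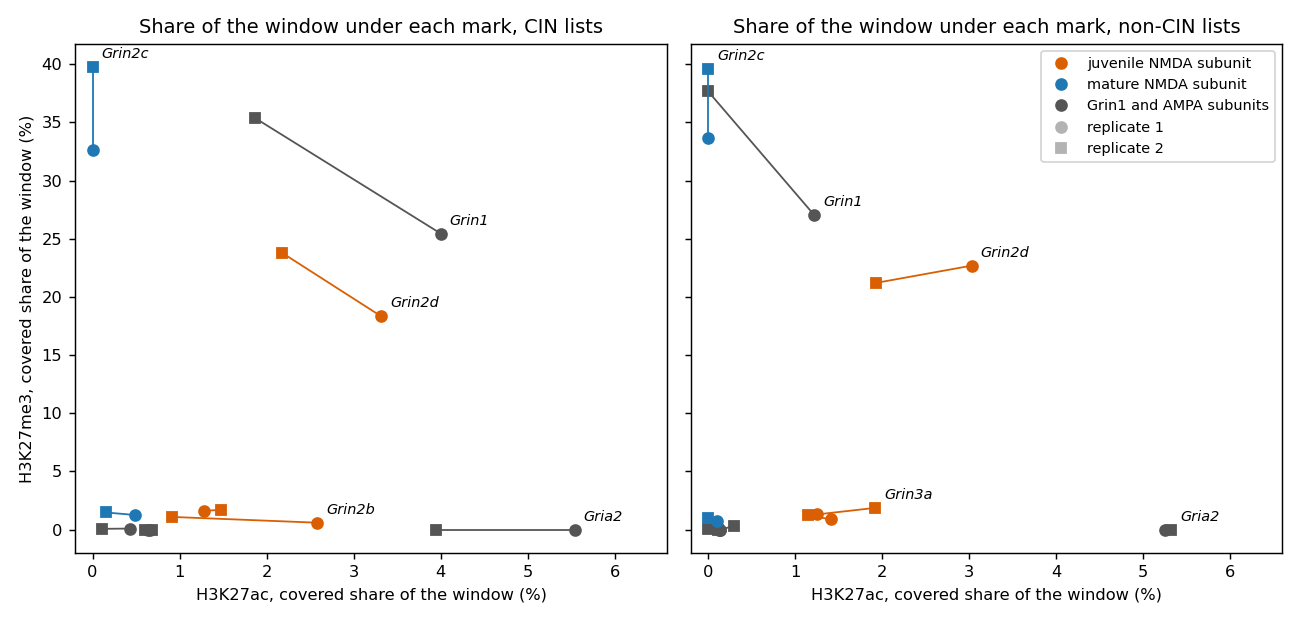
Share of the gene window covered by H3K27ac (horizontal, %) and by H3K27me3 (vertical, %) for each of the 10 genes in CINs (left) and non-CINs (right), with a line joining the replicates and colour for juvenile, mature and other subunits. *Grin2c*, *Grin1* and *Grin2d* have over 18% of the window under H3K27me3 in all lists, and the other 7 genes lie along the bottom, with *Gria2* farthest to the right.

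Of 37 other glutamate receptor, auxiliary and scaffold genes, 34 had an H3K27ac peak, with 9 called higher in CINs, 9 higher in non-CINs and 16 overlapping, beside 18.1% and 18% of all genes with a peak. Those with the largest differences were *Grip1*, a scaffold that binds GluA2 (22244 and 14683 bp in the CIN lists against 13668 and 9093 bp in the non-CIN lists), and the kainate receptor gene *Grik3* (15244 and 8920 against 5626 and 5576 bp). In the other direction were the metabotropic receptor gene *Grm3*, which astrocytes express strongly (16922 and 22659 against 33276 and 46293 bp), and *Gsg1l*, an AMPA receptor auxiliary subunit (2614 and 2482 against 8825 and 7602 bp). The astrocyte markers had more H3K27ac in the non-CIN lists, and their part in these values was not tested.

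For H3K27me3, 33 of the 37 had a peak, and 4 were called higher in CINs, 7 in non-CINs and 22 overlapped, beside 7.34% and 11.1% of all genes with a peak. *Gsg1l* had 16440 and 15761 bp in the CIN lists against 4072 and 4464 bp in the non-CIN lists, opposite to its H3K27ac. *Grik3* had 20764 and 26402 bp in the CIN lists against 38755 and 54476 bp in the non-CIN lists, also opposite to its H3K27ac. The kainate receptor gene *Grik1* (2215 and 2134 against 1204 and 713 bp) had the next largest difference among those higher in CINs. Among the members, the gene with a called H3K27me3 length, *Grin2a*, was higher in CINs for both marks.

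The protein-coding gene with the most similar covered lengths to each member was found by Euclidean distance in log2(covered bp + 200) over the 8 lists, where a smaller distance is a closer match. *Grin2c* was closest to *Ovol2* (0.0802), which also had no H3K27ac and 7513, 9210, 8011 and 8716 bp of H3K27me3. *Gria2* was closest to *Gm45234* (0.177) and *Gria4* to *Tgm3* (0.431), which had 2922 and 1891 bp of H3K27ac in the CIN lists against 501 and 337 bp in the non-CIN lists. *Grin3a* was closest to *AI464131* (0.626), *Grin2d* to *Jak3* (0.690), *Grin1* to *Phf24* (0.744) and *Grin2b* to *Dgkg* (0.757). *Gria3*, *Grin2a* and *Gria1* had looser matches, *Ttc30b* (1.14), *Pcsk2* (1.16) and *Sh3bp5* (1.44).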

How the data were processed

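Native chromatin immunoprecipitation with sequencing was done by the authors on MNase-digested chromatin of sorted cells, with 4 input samples used only in peak calling. Reads were aligned to mm10 with BWA 0.7.15 by the authors, and broad peaks were called for each sample with MACS2 (2.2.7 in the submitters' processing notes; the study's methods name another release). The deposited lists give each peak's position, a score, a fold enrichment (a ratio over input) and -log10 p and q values. The deposited score was not used here, and -log10 values only set thresholds.

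Peaks were laid over 21938 protein-coding genes (GENCODE vM21). Covered bases, peaks and the top fold percentile within the list were computed per window with Python 3.11.15 and NumPy 2.4.6. Interval code was checked against bedtools 2.31.1, and limma 3.58.1 in R 4.3.3 (trend, 200 bp added before log2, Benjamini-Hochberg over all genes with a peak of the mark) was tested on simulated data. Covered bases used peaks as listed; for HC and population-only regions, peaks 500 bp or less apart were merged first and an overlap of 1 bp sufficed. Samples were grouped by their labelled mark and population. Alternatives were a stricter threshold, other windows, merging, equal list sizes, each list left out and the replicate number as a block. The study calls the replicates biological, each from pooled tissue. Named genes were all members, and from the 37 other glutamate genes the 2 called with the largest difference per mark and direction, of which 1 is not reported here. For each member the nearest gene was named, and of the population-only regions the 2 highest by percentile per kind and mark, with the other *Grin2a* region and the *Grin3a* region added after their values were seen. Members and lists were chosen with earlier results of these data known. Sequences of the *Grin1* and *Gria2* population-only regions overlap UTRs and are not printed.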

Additional observations from a re-analysis of the deposited data

How the results depend on the processing

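No called difference in covered length changed sign under the alternatives run, but that of *Grin2a* H3K27ac fell from 1182.5 to 0 bp within 2.5 kb of the start. Percentile calls of single genes were recomputed only as counts. The counts of members called moved. Main values were 4 (H3K27ac covered length, higher in CINs), 4 (H3K27ac percentile, CINs), 0 and 0 (the same in non-CINs), 1 (H3K27me3 covered length, CINs), 1 (H3K27me3 percentile, CINs), 0 (H3K27me3 covered length, non-CINs) and 1 (H3K27me3 percentile, non-CINs). Leaving out 1 list at a time gave, in that order, 4 to 8, 5 to 8, 0 to 2, 0 to 1, 1 to 3, 2 to 3, 0 to 4 and 2 to 3. The 8 H3K27ac calls in CINs came without CIN replicate 2, and the 2 in non-CINs without CIN replicate 1. With 1 list in an arm the rule is easier to meet by construction. For H3K27me3, 4 non-CIN calls came without CIN replicate 2 and without non-CIN replicate 1. limma called 0 members for H3K27ac and 0 for H3K27me3, and with the replicate block 1 and 0. The window of 2.5 kb on each side of the start gave 2 H3K27me3 calls in CINs.

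The labels do not say that a replicate number marks a shared pool, and deviations of same-numbered lists correlated at 0.344 (H3K27ac, 14672 genes) and 0.60 (H3K27me3, 8941 genes). Comparing within replicate numbers, the replicate block, gave 6 members higher in CINs by H3K27ac length and 7 by H3K27ac percentile, beside 29.8% and 33.2% of genes. It gave 2 higher in non-CINs by H3K27me3 length and 2 by H3K27me3 percentile, beside 25.4% and 24.1%. Without the block, population-only regions were 5 (CIN) and 1 (non-CIN) for H3K27ac and 0 and 3 for H3K27me3. Non-CIN-only H3K27ac regions numbered 0 at -log10 q of at least 4 and 3 at a reciprocal overlap of 50%, and non-CIN-only H3K27me3 regions 2 without merging. At -log10 q of at least 4, HC peaks numbered 12 and 7 for H3K27ac in CINs and non-CINs, and 14 for H3K27me3 in non-CINs. H3K27me3 HC peaks numbered 8 and 10 at a reciprocal overlap of 50% and 35 and 40 without merging. At -log10 q of at least 4, 4 members in CINs and 1 in non-CINs had H3K27ac at the start, beside 45.5% and 44.97% of all genes.

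For juvenile minus mature subunits, values are given as CIN then non-CIN. The H3K27ac difference was 1.87 and 1.64 points and ranged from 1.40 to 2.34 and from 1.36 to 1.92 over single lists. It was 13.3 and 11.6 points within 2.5 kb of the start, 0.935 and 1.18 without peaks at the starts of other genes (chosen after seeing the data), 1906.5 and 2899.75 bp as covered length, 61.0 and 80.6 as top percentile, and 1.10 in non-CINs at -log10 q of at least 4. The H3K27me3 difference was -17.1 and -17.2 points, from -18.9 to -15.3 and from -18.4 to -15.9 over single lists. It was -19.7 and -20.0 in the gene body, -44.8 and -22.9 within 2.5 kb of the start, -7.83 and -7.24 among GluN2 subunits, -3054 and -1131.25 bp as covered length, and -9.61 and -5.97 as percentile. In CINs it was -13.6 at -log10 q of at least 4 and -20.2 with merged peaks. Of the values of single genes and of HC peaks under all alternatives, 169 stayed within the replicate spread (or 1.5 times the count) and 17 did not; the cause was not tested. The lists hold no read counts, so the limit that depth sets could not be given.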
